A study of Mus musculus with 8 samples.

Results

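Jchain, Xbp1, Prdm1, Sdc1 and Ighm are genes of the plasma cell program, and Pax5 is known for holding such genes down in B cells. The members are every non-control probe whose gene name on the array was one of these symbols or an older alias, Igj for Jchain and Igh-6 for Ighm. They came to 5 genes and 8 probes, of 19694 named genes and 41174 probes on the array. A probe was tested if, in at least 1 comparison, both arrays detected one of the RNAs well above background with it, which held for 29461 probes and for 6 of the 8 member probes. The single Prdm1 probe and the Ighm probe A_52_P311042 were not well above background in any RNA on any of the 8 arrays.

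The 8 arrays compared RNA of mouse B cell precursors in 4 comparisons, each hybridised on 2 arrays with the dyes exchanged. All cells were bone marrow-derived Pax5-/- pro/preB cells, grown with IL-7 on irradiated OP9 cells, a stromal feeder line. Clone 4, a single clone with a transgene for human Pax5 (huPax5) that the transactivator rtTA turns on when doxycycline is added, was given doxycycline at 10, 300 or 1000 ng/ml. The label of Pax5sz2 names cells that have only rtTA and got doxycycline, at a dose that it does not state. The RNA on the other channel of every array was labelled as clone 4 without doxycycline. All the cells thus lacked both mouse Pax5 alleles, and Pax5sz2 differed from clone 4 in more than the transgene, since it is another cell population.

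Pax5 commits lymphoid progenitors to the B lineage and represses genes that belong to other lineages or to the terminal plasma cell. When a B cell becomes a plasma cell, Prdm1 (Blimp-1) shuts Pax5 off, Xbp1 expands the secretory apparatus, Jchain links IgM and IgA into polymers, Ighm encodes the mu heavy chain of IgM, and the surface proteoglycan Sdc1 (CD138) marks the cell.

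The starts of Jchain, whose ratio was lowest of the 5 genes at 300 ng/ml, and Sdc1, whose ratio was highest there, are shown to give the sequence context of that difference. Each is 251 bases from RefSeq (GRCm38.p6), written 5′ to 3′ on the strand of the gene, with the first transcribed base in capitals. Jchain lies on the minus strand at chr5:88527897-88528147 and Sdc1 on the plus strand at chr12:8771146-8771396.
Jchain: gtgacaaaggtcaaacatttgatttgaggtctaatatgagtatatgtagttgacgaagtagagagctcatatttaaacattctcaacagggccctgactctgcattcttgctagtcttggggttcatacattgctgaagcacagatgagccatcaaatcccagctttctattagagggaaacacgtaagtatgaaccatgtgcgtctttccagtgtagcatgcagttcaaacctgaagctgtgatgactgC
Sdc1: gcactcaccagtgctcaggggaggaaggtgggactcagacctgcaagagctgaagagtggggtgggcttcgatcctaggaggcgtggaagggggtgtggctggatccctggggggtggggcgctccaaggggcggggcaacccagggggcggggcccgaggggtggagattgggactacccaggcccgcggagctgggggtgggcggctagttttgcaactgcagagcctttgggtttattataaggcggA

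The 300-base windows of Jchain, Xbp1, Prdm1 and Sdc1 (250 bases before the start and 50 after it) were searched on both strands for GCGTGAC, a core of the Pax5 site, AGNGAAAG, a core of the Prdm1 site, and TGACGTG, a core of the Xbp1 site. None of the 4 windows held any of the 3 motifs, which occur in 2.09%, 8.63% and 2.01% of the 32851 promoter windows of the same length. This says only that these letters are not in these windows. The GC content of the windows was 42.3% for Jchain, 51% for Xbp1, 59.7% for Prdm1 and 66.3% for Sdc1, with 3, 10, 20 and 14 CpG dinucleotides. Ighm had no entry in the table. The array probes are 60-base oligonucleotides that the files place on mm8. The Jchain probes A_51_P150710 and A_51_P150705 lie at chr5:89595455-89595514 and chr5:89595625-89595684 and start 170 bases apart. Xbp1 is measured at chr11:5424970-5425029, Prdm1 at chr10:44125900-44125959 and Sdc1 at chr12:8818585-8818644. The bright Ighm probes A_52_P358360 and A_51_P485421 lie at chr12:113866458-113866517 and chr12:113869227-113869286, 2769 bases apart, and the dim one, A_52_P311042, at chr12:114736061-114736120, 869603 bases from the first. An annotation of mm8 was not used here, so exon and intron are not given.

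The ratio of a probe is the log2 of its normalized signal in the named RNA over that in clone 4 without doxycycline, so a positive value means higher in the doxycycline-treated or Pax5sz2 RNA. The ± is the SD of the 2 dye-swapped arrays of the same pair of RNAs, which is technical, and no comparison has a second culture. In place of a test, a size was set for single comparisons: a ratio of at least 1 (2-fold) on both arrays in the same direction.

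The 2 arrays of the 1000 ng/ml comparison stood apart. They were the only ones of an earlier scan batch, with another extraction setting. On them 40.4% to 45.1% of spots were well above background, against 59.5% to 75.5% on the 6 other arrays. That flag used a multiplier of 2.6 there and 13 on the others, so these shares are not like for like. The ratios of the 1000 ng/ml arrays correlated negatively with those at 300 ng/ml in the same dye orientation over all probes. Pearson's r was -0.359 (named RNA in Cy5) and -0.46 (named RNA in Cy3), although by the labels the conditions differ only in dose. The direction of the 1000 ng/ml comparison is therefore not settled. Its values are given as labelled, and each member value that passed the size is also given with its sign turned. For the other genes named at 1000 ng/ml, turning likewise exchanges higher and lower and keeps the size. In it the dose and the scan batch cannot be told apart. The 2 arrays of the 300 ng/ml comparison were the least alike of any pair. Over the probes tested their Pearson's r was 0.639, against 0.81 to 0.924 in the other comparisons. The 300 ng/ml array with the named RNA in Cy5 had 295 outlier spots, against 37 to 115 on the other arrays.

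Jchain gave the widest range of the 5 genes. It was lower than in clone 4 without doxycycline at 300 ng/ml and higher in Pax5sz2, past the size on both probes. With median centring in place of loess these 4 calls were lost, at -1.06 and -1.22 for 300 ng/ml and 1.97 and 1.77 for Pax5sz2, since 1 array of each pair fell short of the size. As labelled it was also far higher at 1000 ng/ml, and with the sign of that comparison turned it was far lower. At 10 ng/ml it differed little.

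Probe A_51_P150710 had log2 ratios of 0.01 and -0.21 at 10 ng/ml on the arrays with the named RNA in Cy5 and in Cy3. Its ratios were -1.18 and -1.52 at 300 ng/ml, and 3.89 and 3.61 at 1000 ng/ml as labelled. In Pax5sz2 they were 1.68 and 1.12. The arrays of a comparison thus took the same side of the size in every case. The means were -0.10 ± 0.15, -1.35 ± 0.24, 3.75 ± 0.20 and 1.40 ± 0.39 (SD, n = 2 arrays), which is 2.54-fold lower with 300 ng/ml, 13.5-fold higher with 1000 ng/ml and 2.63-fold higher in Pax5sz2. With the sign of the 1000 ng/ml comparison turned, its mean was -3.75.

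The other Jchain probe, A_51_P150705, gave 0.07 and -0.09 at 10 ng/ml, -1.35 and -1.56 at 300 ng/ml, 4.70 and 4.68 at 1000 ng/ml, and 1.39 and 1.08 in Pax5sz2. Its order of the 4 comparisons was that of the first probe. The means were -0.01 ± 0.11, -1.45 ± 0.15, 4.69 ± 0.018 and 1.24 ± 0.22 (SD, n = 2 arrays), or 2.73-fold lower at 300 ng/ml, 25.8-fold higher at 1000 ng/ml and 2.36-fold higher in Pax5sz2. Turned, the 1000 ng/ml mean was -4.69. Only 3 of the 29461 probes tested had a higher mean ratio at 1000 ng/ml than this probe, and 11 had a higher one than A_51_P150710.

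**Figure D1:**
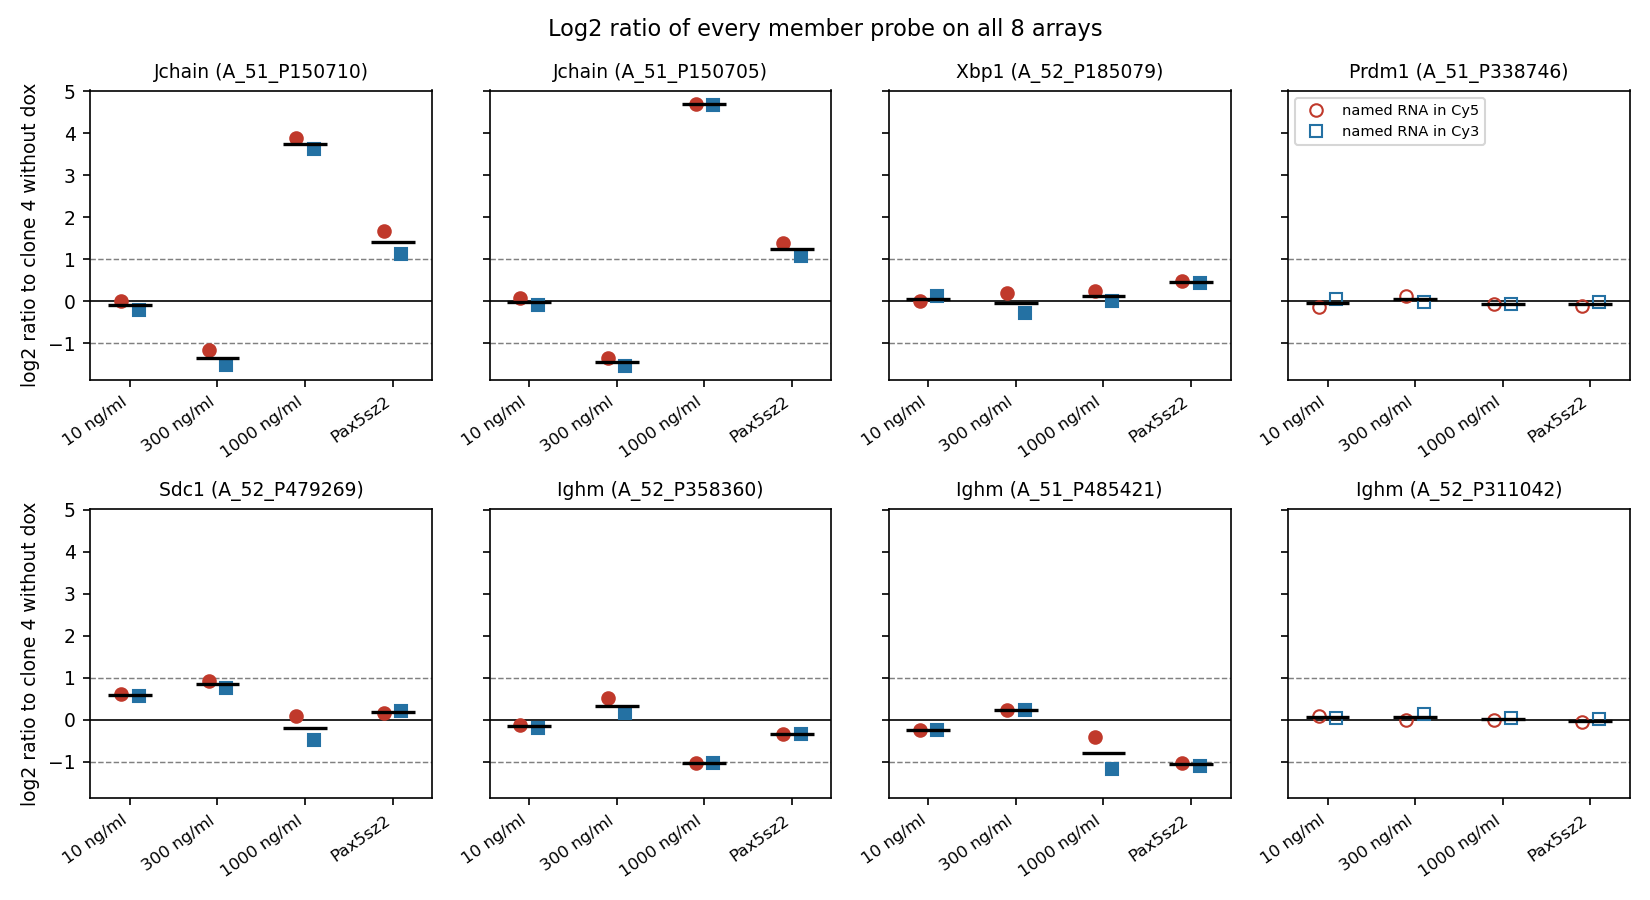
Log2 ratio (y axis) of each of the 8 member probes in the 4 comparisons (x axis), on the array with the named RNA in Cy5 (circles) and in Cy3 (squares); black bars are means, dashed lines mark a ratio of 1 and -1, and open symbols mark probes not well above background on any array. Both Jchain probes sit below -1 at 300 ng/ml, above 3.6 at 1000 ng/ml as labelled and above 1 in Pax5sz2, while Xbp1 and Sdc1 stay within 1 of 0.

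The 8 calls at the size among the 6 tested member probes fell in 3 comparisons. At 10 ng/ml none of the 6 passed it, where 0.502% of all probes tested were higher and 1.19% lower. Both Jchain probes were lower at 300 ng/ml, where 2.28% of all probes were lower and 1.09% higher. Both Jchain probes were higher at 1000 ng/ml and 1 Ighm probe lower as labelled, where 1.63% of all probes were higher and 0.519% lower. In Pax5sz2 both Jchain probes were higher and 1 Ighm probe lower, where 1.89% of all probes were higher and 3.24% lower.

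The channel levels give the signal of each RNA by itself. The level of A_51_P150710, a normalized log2 value for 1 channel, was 15.20 and 15.12 in the 10 ng/ml RNA, 14.12 and 13.81 in the 300 ng/ml RNA, 15.54 and 15.58 in the RNA labelled 1000 ng/ml, and 16.58 and 16.60 in the Pax5sz2 RNA. Against these, clone 4 without doxycycline ranged from 14.90 to 15.48 with a median of 15.31 on the 6 later arrays, and stood at 11.65 and 11.96 on the 2 arrays of the 1000 ng/ml comparison. On the later arrays the 10 ng/ml RNA lay within the range of clone 4 without doxycycline, the 300 ng/ml RNA below it and the Pax5sz2 RNA above it.

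The RNA labelled 1000 ng/ml lay just above that range, and the RNA labelled as its control was the low one. A_51_P150705 had 14.13 and 14.52 in the RNA labelled 1000 ng/ml, against 9.43 and 9.84 in its control RNA, where clone 4 without doxycycline had 13.81 to 14.31 on the 6 other arrays. Here 1 array of the RNA labelled 1000 ng/ml lay within that range and 1 above it, and the control RNA was again the low one. The mean shift of the control RNA between the earlier and the later arrays was -3.45 for A_51_P150710 and -4.45 for A_51_P150705. Over all 29461 probes the median size of that shift was 0.21, 0.934% of probes shifted by 2 or more, and 3 had a shift below that of A_51_P150705. The unnormalized mean signal of A_51_P150710 was 42408 (Cy5) and 16034 (Cy3) in the RNA labelled 1000 ng/ml and 4096 (Cy5) and 1035 (Cy3) in its control. Levels of the 2 batches were not measured at the same settings, so the comparison between batches is a description.

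**Figure D2:**
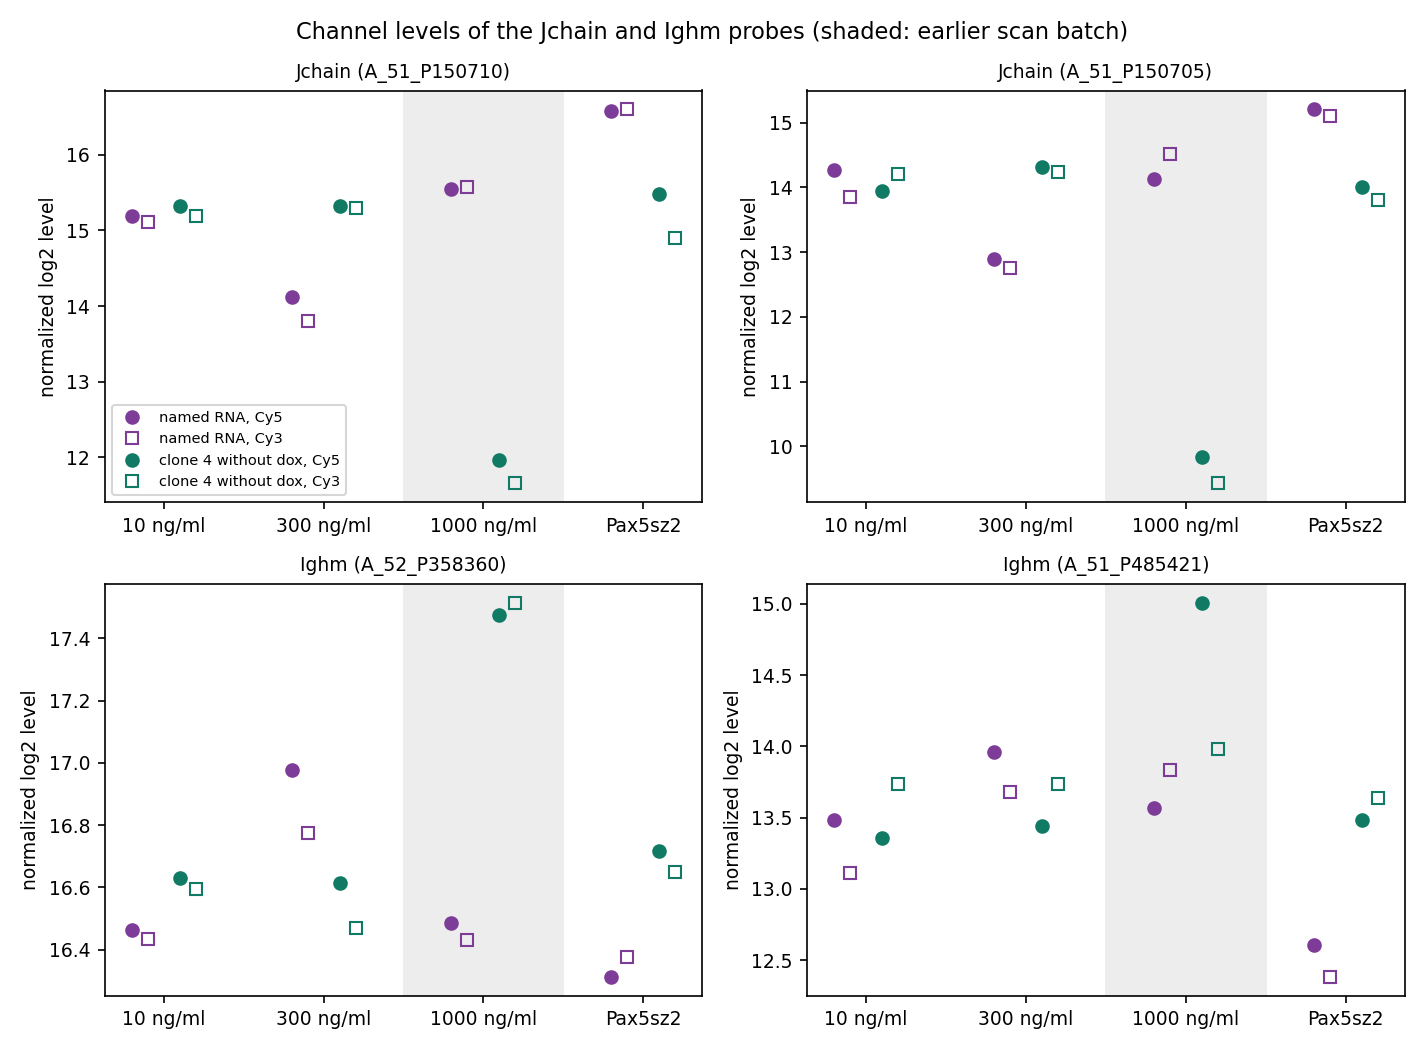
Normalized log2 level (y axis) of the 2 Jchain probes and the 2 bright Ighm probes in the named RNA (purple, left) and in clone 4 without doxycycline (green, right) in each comparison (x axis); filled circles are the Cy5 channel, open squares the Cy3 channel, and the shaded comparison is that of the earlier scan batch. For Jchain probe A_51_P150710 the RNA labelled as control at 1000 ng/ml sits at 11.65 and 11.96, against 14.90 to 15.48 for clone 4 without doxycycline on the 6 other arrays.

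Markers of myeloid cells moved with Jchain at 300 and 1000 ng/ml. Past the size, 4 of the 8 listed genes were lower at 300 ng/ml, where 2.36% of all genes tested were lower: Fcer1g (-3.40 ± 0.18), Tyrobp (-3.39 ± 0.01) and Ctsg (-2.98 ± 0.12), and Mpo, the granule peroxidase (-1.54 ± 0.07; SD, n = 2 arrays). The same 4 genes were higher as labelled at 1000 ng/ml, where 1.94% of all genes were higher: Ctsg (5.14), Fcer1g (4.46), Tyrobp (4.06) and Mpo (1.19, and at least 1.87-fold since its control RNA was not well above background). At 10 ng/ml only Tyrobp passed (-1.35, lower), and in Pax5sz2 Ctsg (-1.68) and Fcer1g (-1.09) were lower while Jchain was higher.

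The summed level of the 8 myeloid markers, on a linear scale, was 30014 to 40104 at 10 ng/ml against 37724 to 41725 in its control RNA. It was 6412 to 6833 at 300 ng/ml against 38666 to 43002, and 39410 to 50078 at 1000 ng/ml against 3052 to 3924. In Pax5sz2 it was 21131 to 24412 against 47335 to 47410. Of the 8 markers 7 were well above background on both arrays in the 300 ng/ml RNA, and 6 in the 1000 ng/ml RNA against 4 in its control. In bulk RNA a change in the number of cells of a type and a change in RNA per cell cannot be told apart, and the part of such cells in the Jchain values was not tested.

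Of 8 listed markers of plasmacytoid dendritic cells, 3 were lower past the size at 300 ng/ml, where 2.36% of all genes were lower: Cox6a2 (-2.42), Ly6d (-1.61) and Siglech (-1.12, and at least 2.11-fold, since the 300 ng/ml RNA was not well above background). As labelled, Ly6d (2.34) and Runx2 (1.30) were higher at 1000 ng/ml, where 1.94% of all genes were higher. In Pax5sz2 Ly6d (1.84), Ccr9 (1.62) and Cox6a2 (1.62) were higher, where 2.34% of all genes were. No marker passed at 10 ng/ml, where Cox6a2 had -0.99 and Bst2 0.90. Bst2 was also higher at 300 ng/ml, below the size (0.77), where 2 of the 8 mean ratios were above 0. The summed level was 68733 to 102323 at 10 ng/ml against 57683 to 68672, 65922 to 73006 at 300 ng/ml against 63791 to 65050, 72389 to 91102 at 1000 ng/ml against 39847 to 50823, and 130297 to 164698 in Pax5sz2 against 70642 to 74142 in clone 4 without doxycycline. At 300 ng/ml Bst2 was the brightest of the 8, with a level of 15.81 against 15.05 in its control, and made up most of the sum. The part of plasmacytoid dendritic cells in the Jchain values was not tested.

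The 3 named genes whose ratios over the 8 arrays lay closest to those of Jchain probe A_51_P150710, by root mean square difference among 15686 named genes tested, were Crisp1 (0.66), Cracdl (0.74) and Ociad2 (0.76). Crisp1 had mean ratios of -0.30, -2.30 and 3.5 at 10, 300 and 1000 ng/ml and 1.43 in Pax5sz2. Ociad2 had 0.03, -0.57, 2.56 and 0.97 in the same order, and Cracdl had -0.28, -0.98, 2.65 and 0.60. These genes were chosen for their likeness over the same 8 arrays, so their directions are a description.

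Ighm, the mu heavy chain gene, was measured by 2 bright probes that did not give the same size. Probe A_52_P358360 had log2 ratios of -0.13 and -0.19 at 10 ng/ml, 0.51 and 0.16 at 300 ng/ml, -1.03 and -1.04 at 1000 ng/ml, and -0.34 on both arrays in Pax5sz2. It was thus above 0 only at 300 ng/ml as labelled, and with the 1000 ng/ml sign turned also there. Its means were -0.16 ± 0.04, 0.33 ± 0.25, -1.04 ± 0.01 and -0.34 ± 0.0034 (SD, n = 2 arrays), and only the 1000 ng/ml value passed the size, by a small margin. With the sign turned that value was 1.04.

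Probe A_51_P485421 had -0.25 on both arrays at 10 ng/ml and 0.23 on both at 300 ng/ml. It had -0.41 and -1.17 at 1000 ng/ml, and in Pax5sz2 -1.03 and -1.1. It passed the size only in Pax5sz2, with a mean of -1.07 ± 0.05 (SD, n = 2 arrays), 2.09-fold lower. The sign of the mean was the same on both probes in each comparison, while each passed the size where the other did not.

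The level of A_52_P358360 was 16.46 and 16.43 in the 10 ng/ml RNA, 16.98 and 16.77 in the 300 ng/ml RNA, 16.49 and 16.43 in the RNA labelled 1000 ng/ml, and 16.31 and 16.38 in the Pax5sz2 RNA. Clone 4 without doxycycline had 16.47 to 16.72 on the 6 later arrays and 17.51 and 17.47 on the 2 arrays of the 1000 ng/ml comparison. As with Jchain, it was the RNA labelled as control that stood apart at 1000 ng/ml, here 0.88 above the later mean.

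The level of A_51_P485421 was 12.61 and 12.38 in the Pax5sz2 RNA, below the 13.36 to 13.74 of clone 4 without doxycycline on the 6 later arrays. It was 13.96 and 13.68 at 300 ng/ml, against 13.74 and 13.44 in its control. At 1000 ng/ml the control RNA had 13.98 in Cy3 and 15.01 in Cy5, so that the control channels lay further apart than the mean ratio of -0.79 ± 0.54 (SD, n = 2 arrays).

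The third Ighm probe stayed at background, with levels of 5.96 to 6.23 in the named RNAs and 5.96 to 6.18 in clone 4 without doxycycline. The genes closest to A_52_P358360 over the 8 arrays were Ltbp4 (root mean square difference 0.14), Cabp4 (0.15) and Smap2 (0.15). Their ratios at 1000 ng/ml were -0.97, -1 and -0.85, and those at 300 ng/ml 0.11, 0.13 and 0.22.

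Sdc1, the CD138 proteoglycan, was higher with doxycycline at the lower doses, below the size. Its log2 ratios were 0.61 and 0.57 at 10 ng/ml, 0.93 and 0.76 at 300 ng/ml, 0.09 and -0.48 at 1000 ng/ml, and 0.17 and 0.20 in Pax5sz2. The 1000 ng/ml arrays fell on both sides of 0.

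The Sdc1 means were 0.59 ± 0.025, 0.84 ± 0.12, -0.20 ± 0.40 and 0.18 ± 0.02 (SD, n = 2 arrays), or 1.5-fold and 1.8-fold higher at 10 and 300 ng/ml. A higher mean ratio at 300 ng/ml was found for 835 of 29461 probes. Its level was 7.78 and 8.15 in the 10 ng/ml RNA and 8.26 and 8.20 in the 300 ng/ml RNA, against 7.17 to 7.58 in clone 4 without doxycycline on the 6 later arrays. In the 1000 ng/ml comparison it was 7.88 and 7.63 in the named RNA and 7.79 and 8.11 in the control, so both lay above that range. With the signals processed by Agilent in place of normexp and loess, the 300 ng/ml ratio was 1.23 and passed the size.

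Stromal markers moved with Sdc1, a gene that stromal and epithelial cells also express, at 10 and 300 ng/ml. In Pax5sz2 the stromal markers had a median ratio of 0.85, while Sdc1 had a mean ratio of only 0.18. Of the 8 listed genes 3 were higher past the size at 10 ng/ml, where 0.606% of all genes were higher: Cxcl12 (1.45 ± 0.01), Col3a1 (1.27 ± 0.05) and Vcam1 (1.20 ± 0.0024). At 300 ng/ml 6 were higher, where 1.32% of all genes were higher, led by Col3a1 (1.91), Vcam1 (1.86), Cxcl12 (1.75) and Sparc (1.47). None passed at 1000 ng/ml, where Vcam1 had -0.51 and Col1a1 0.28, and 3 were higher in Pax5sz2, where 2.34% of all genes were higher: Cxcl12 (1.78), Sparc (1.21) and Vcam1 (1.1). Other probes of Col3a1 (-0.04 at 10 ng/ml and -0.02 at 300 ng/ml) and of Vcam1 (0.12 and 0.44) were near 0. Those of Col1a1 had 0.37 and 0.10 at 300 ng/ml. Another Sparc probe had 0.66 at 300 ng/ml and -0.10 in Pax5sz2, where the other Vcam1 probe had 0.20. The other Cxcl12 probe passed the size at 300 ng/ml (1.22) and in Pax5sz2 (1.25), and had 0.90 at 10 ng/ml.

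The summed linear level of the 8 stromal markers was 35289 to 40352 at 10 ng/ml against 17152 to 18444 in its control, and 37442 to 46496 at 300 ng/ml against 11556 to 17685. It was 16409 to 19980 at 1000 ng/ml against 16583 to 20150, and 35305 to 36565 in Pax5sz2 against 18872 to 19282. Col1a2 was marked as an outlier on a 300 ng/ml array, so it could not be called there. The sums of that array leave Col1a2 out, so the 300 ng/ml ranges join sums over unlike sets of markers. All 8 markers were well above background on both arrays of each comparison, except at 1000 ng/ml, where 7 were. The part of the feeder layer in the Sdc1 values was not tested.

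Xbp1, the transcription factor of the secretory program, was near its level in clone 4 without doxycycline at every dose. Its log2 ratios were -0.01 and 0.13 at 10 ng/ml, 0.19 and -0.27 at 300 ng/ml, and 0.23 and 0.01 at 1000 ng/ml. In Pax5sz2 they were 0.47 and 0.44. The 2 arrays of the 10 and 300 ng/ml comparisons fell on both sides of 0. The means were 0.06 ± 0.10, -0.04 ± 0.33, 0.12 ± 0.16 and 0.45 ± 0.02 (SD, n = 2 arrays), and the last is 1.37-fold. The level was 11.03 and 11.17 in Pax5sz2 RNA, against 10.36 to 10.73 in clone 4 without doxycycline on the 6 later arrays and 10.55 and 10.66 on the 2 earlier ones.

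Prdm1, which drives the exit from the B cell program, could not be followed. Its levels were 6.08 to 6.39 in the named RNAs and 6.04 to 6.27 in clone 4 without doxycycline, not well above background in either, and its mean ratios were between -0.08 and 0.05. Since neither RNA gave a signal, no fold is given.

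**Figure D3:**
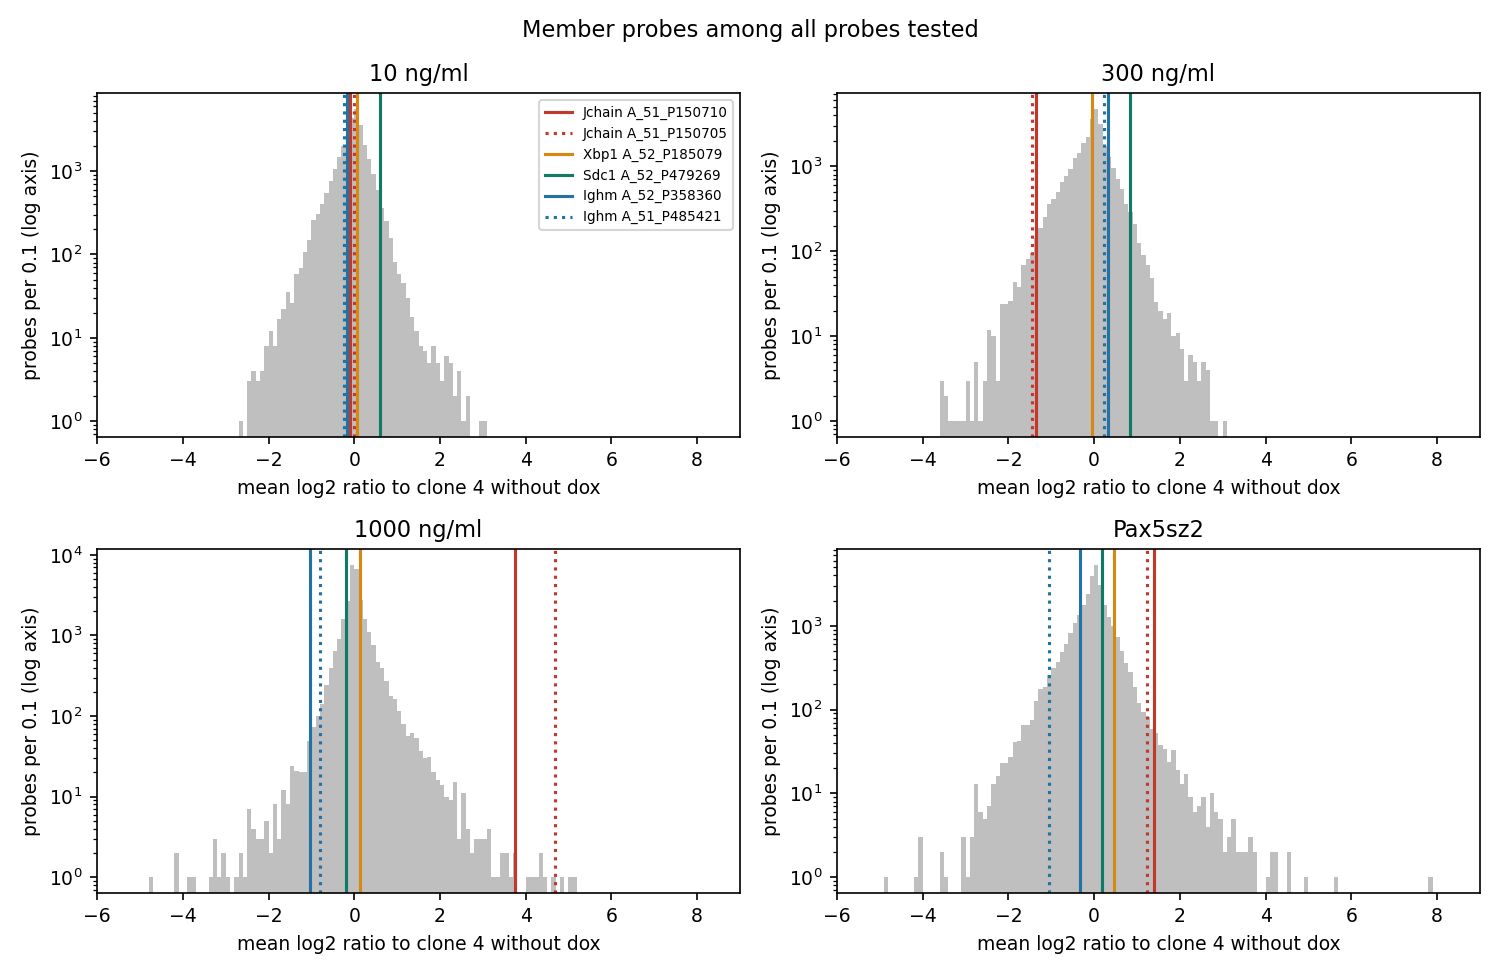
Distribution of the mean log2 ratio (x axis) of the 29461 probes tested in each comparison (number of probes per 0.1, log y axis), with the 6 tested member probes as vertical lines. At 1000 ng/ml as labelled the 2 Jchain probes lie at 3.75 and 4.69, where 11 and 3 probes are higher, while the other members lie within 1.04 of 0.

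Over the 3 doses together a mean doxycycline effect was fitted with limma on 1 averaged ratio per dose, two-sided, with Benjamini-Hochberg adjustment over all 29461 probes. None of the 6 member probes passed an adjusted p of 0.05: the limma adjusted p was 0.846 and 0.821 for the Jchain probes, 0.839 for Xbp1, 0.69 for Sdc1, and 0.783 and 0.744 for the Ighm probes A_52_P358360 and A_51_P485421. No probe of the array passed (0%), the smallest adjusted p was 0.689, and 1737 probes had an unadjusted p under 0.05. With the 1000 ng/ml sign turned the limma adjusted p of the members was 0.154 (Sdc1) to 0.776 (Xbp1), and again no probe of the array passed.

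Without the 1000 ng/ml comparison the mean of Sdc1 over 10 and 300 ng/ml was 0.72, with a limma adjusted p of 0.0416. Of all probes 6.21% passed as higher and 9.96% as lower, and 11447 had an unadjusted limma p under 0.05. This fit rests on 1 averaged ratio for each of these doses. Both ratios share the labelled control, so the p-value cannot tell a doxycycline effect from a deviation of that control. In the same fit all 8 stromal markers, each by its brightest probe, passed as higher. Their means lay between 0.56 (Kitl) and 1.6 (Cxcl12), with limma adjusted p of 0.035 to 0.0411. For Col1a2 the 300 ng/ml value came from a single array. Of the 8 plasmacytoid dendritic cell markers Bst2 (0.83) passed as higher. Siglech (-0.97) and Tcf4 (-0.55) passed as lower, and the limma adjusted p of these genes was 0.035 to 0.0465. The Jchain probes then had means of -0.72 and -0.73 with limma adjusted p of 0.252 and 0.3. Xbp1 (0.01, 0.927) and the Ighm probes A_52_P358360 (0.08, 0.728) and A_51_P485421 (-0.01, 0.97) did not pass either.

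The Pax5sz2 effect, tested in limma with the spread of the doses, passed for no member. The limma adjusted p was 0.868 and 0.903 for Jchain, 0.378 for Xbp1, 0.92 for Sdc1, and 0.88 and 0.482 for Ighm. No probe of the array passed in this test (0%), with a smallest adjusted p of 0.0725 and 3304 probes at an unadjusted p under 0.05. The difference of Pax5sz2 from the mean of the doses was not past the threshold for any member either, with limma adjusted p of 0.665 (Xbp1) to 1. Pax5sz2 has 1 RNA sample, so the test assumes that it varies as the doses do.

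Of 18 other listed genes of the plasma cell program, all tested, 3 passed the size in Pax5sz2, and the doses of 300 and 1000 ng/ml had 1 and 3 such genes. None passed at 10 ng/ml, where 0.606% of all genes were higher and 1.27% lower, and where Lman1, a cargo receptor of the secretory pathway, had 0.87 and Derl3, a factor of protein disposal at the endoplasmic reticulum, -0.74. At 300 ng/ml Irf4, a transcription factor that acts with Prdm1, was higher (1.11 ± 0.02; 1.13 and 1.1), where 1.32% of all genes were higher. At 1000 ng/ml as labelled Cd28 was higher (1.33, and at least 1.89-fold), and Slamf7 (-2.06, and at least 3.75-fold) and Irf4 (-1.44, and at least 2.04-fold) were lower, each bound set by the RNA that was not well above background. Of all genes 1.94% were higher there and 0.636% lower.

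In Pax5sz2, Ell2, an elongation factor for immunoglobulin secretory transcripts, was higher (1.68 ± 0.02), as were Creb3l2 (1.63 ± 0.0043) and Fkbp11, a chaperone of the secretory pathway (1.09 ± 0.04; SD, n = 2 arrays), 3 of 18 where 2.34% of all genes were higher. Other probes of Ell2 (0.11), Creb3l2 (0.23) and, at 1000 ng/ml, Cd28 (-0.01) did not show the change, and that of Slamf7 did (-1.39). In the order of 10, 300 and 1000 ng/ml and Pax5sz2 the median ratio of the list was 0.04, 0.04, 0.03 and 0.12, against 0.014, 0.0040, 0.0037 and 0.026 over all genes tested. Without the 1000 ng/ml comparison Lman1 (0.89) passed the limma test as higher and Derl3 (-0.76) as lower, both with an adjusted p of 0.035, 1 of 18 each way where 6.21% of all probes were higher and 9.96% lower.

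Of 20 listed targets of Xbp1 and the unfolded protein response, none passed the size at any dose, where 0.606% to 1.94% of all genes were higher and 0.636% to 2.36% lower. For 20 genes a count of 0 is near those shares. At 10 ng/ml Pdia4, a disulfide isomerase, had 1.12 ± 0.35 and Sdf2l1 0.79 ± 0.04. At 300 ng/ml Edem1 had -1.04 ± 1.26, with its arrays far apart and other probes at -0.10 and 0.13, and Pdia4 had 0.95. Syvn1 had -0.85 at 1000 ng/ml and Sdf2l1 0.82. In Pax5sz2 the chaperone Hyou1 was higher (1.40 ± 0.09; SD, n = 2 arrays), with another probe at -0.34. The list's median was 0.04, -0.16, 0.39 and 0.25 in this order of comparisons. Without the 1000 ng/ml comparison Pdia4 (1.03), Sdf2l1 (0.75), Hyou1 (0.71) and Creld2 (0.60) passed the limma test as higher, with adjusted p of 0.035 to 0.0358, 4 of 20 where 6.21% of all probes were higher. The other Hyou1 probe had -0.30 at both 10 and 300 ng/ml. Creld2 is named for this count after its value was seen.

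Of 12 regulators that oppose Prdm1 or keep the B cell program, Mitf was lower at 10 ng/ml (-2.49 ± 0.13) and at 300 ng/ml (-2.35 ± 0.18), with another Mitf probe at 0.00 and 0.09. Of all genes 1.27% and 2.36% were lower there. The Mitf level in clone 4 without doxycycline was 10.68 and 10.59 in these comparisons. It was only 7.19 at 1000 ng/ml, not well above background, and 6.68 in the Pax5sz2 comparison, well above background on a single array. The cause of this difference in the control was not tested. Ikzf3 (1.28 ± 0.26) and Id3 (1.06 ± 0.03) were higher at 300 ng/ml, where 1.32% of all genes were higher. As labelled, Ikzf3 (-3.08), Id3 (-1.60), Bach2, a repressor of Prdm1 (-1.49), and Ebf1 (-1.09) were lower at 1000 ng/ml, where 0.636% of all genes were lower. Turned, these 4 are higher.

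In Pax5sz2 Ikzf3 (1.31) and Id3 (1.25) were higher and Foxo1 (-1.66) and Ebf1 (-1.58) lower, where 2.34% of all genes were higher and 2.83% lower. Other probes of Ikzf3 were near 0, at 0.09 and 0.04 at 300 ng/ml, -0.04 and -0.31 at 1000 ng/ml and 0.25 and 0.00 in Pax5sz2. Those of Ebf1 had -0.27 at 1000 ng/ml and -0.25 in Pax5sz2. The list's median was -0.08, 0.07, -0.74 and 0.31.

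Of 19 listed immunoglobulin and antigen receptor genes 10 were found by name on the array and tested. None passed at 10 ng/ml, where Cd79a had -0.74 and Cd79b -0.71. Ighg, the gamma heavy chain as the files name it, was higher at 300 ng/ml (1.75 ± 0.02) and in Pax5sz2 (1.21 ± 0.11; SD, n = 2 arrays), with another probe at 0.13 and 0.08 that was lower at 1000 ng/ml as labelled (-1.89). The variable segment Igh-VJ558 was higher at 1000 ng/ml as labelled (1.53 ± 0.02), as were 4 of its 9 other probes (1.26 to 1.51), and Cd79a, a signalling chain of the B cell receptor, was lower (-1.44 ± 0.32). Igh-VJ558 lies in the same locus as Ighm, whose ratio there had the opposite sign. Of all genes 0.606% were higher and 1.27% lower at 10 ng/ml, 1.32% higher at 300 ng/ml, and 1.94% higher and 0.636% lower at 1000 ng/ml.

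In Pax5sz2 the surrogate light chain genes Vpreb1 (7.88), Igll1 (5.65) and Vpreb2 (4.23) and the lambda segment Igl-V1 (2.17) were higher. With Ighg these were 5 of the 10, where 2.34% of all genes were higher. In this comparison the surrogate light chain genes also had a higher level in clone 4 without doxycycline than in the others, as given below. Igh-VJ558 had -1.05 in Pax5sz2, with an array short of the size, and other probes of it passed as lower (-1.19 and -1.15). Another Igll1 probe had 0.98, and other Igl-V1 probes had 0.09 and 0.77. The list's median was 0.03, -0.04, -0.09 and 0.58.

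**Figure D4:**
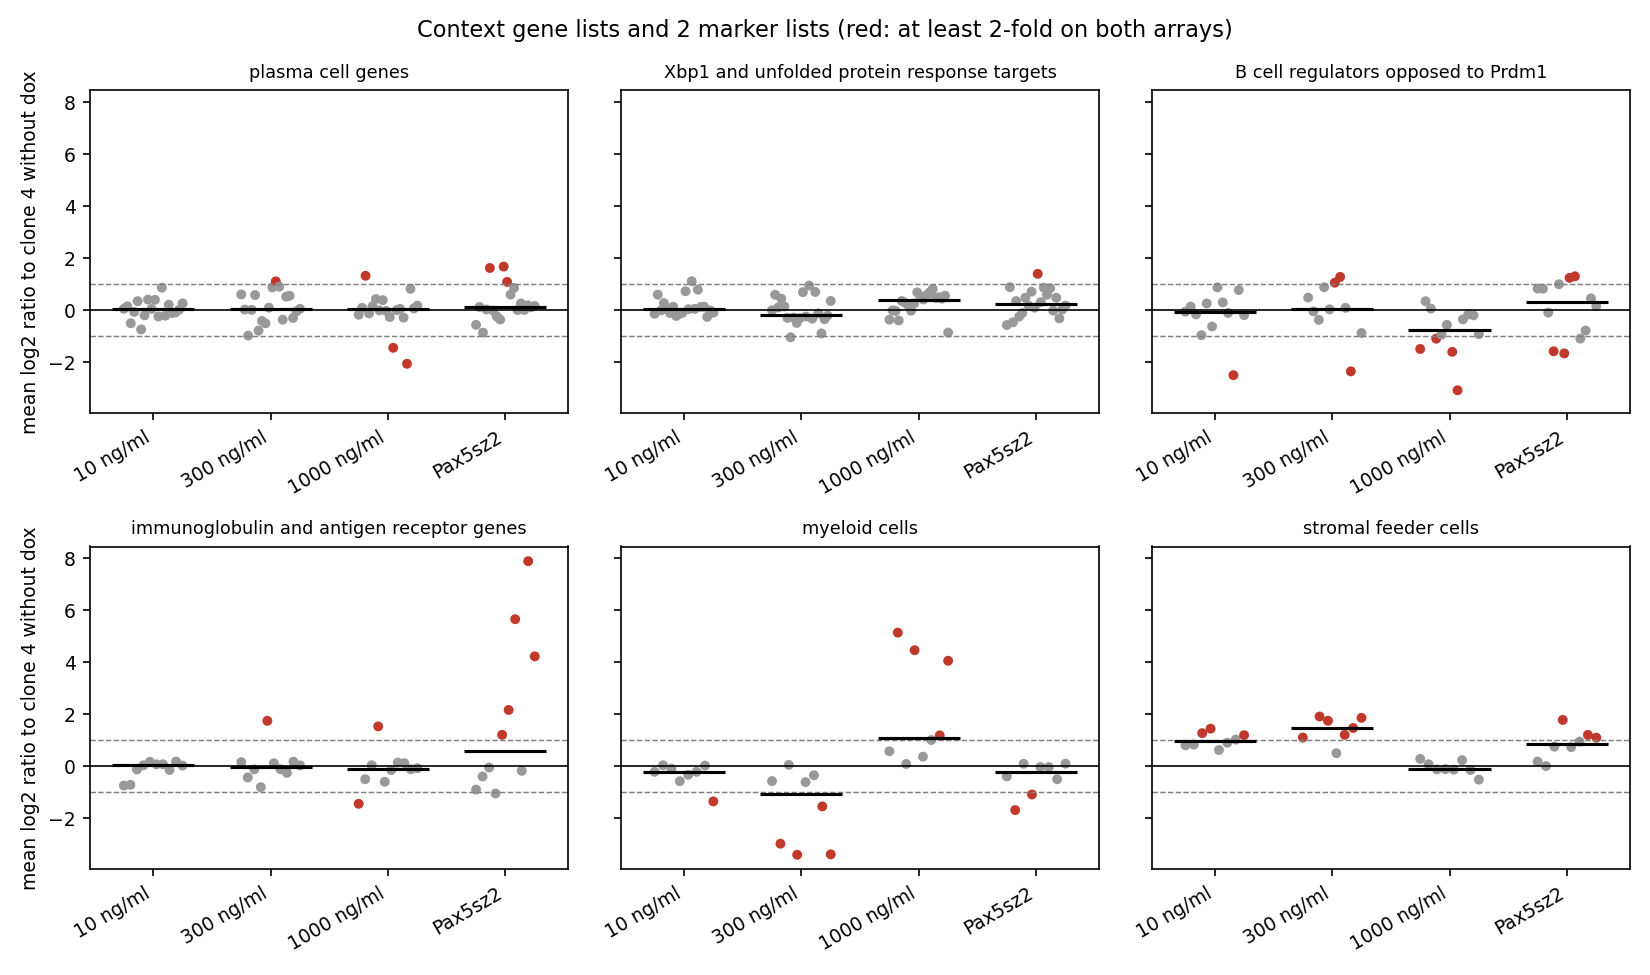
Mean log2 ratio (y axis) of each tested gene of the 4 context lists and of the myeloid and stromal marker lists in the 4 comparisons (x axis); red points passed 2-fold on both arrays, grey points did not, and black bars are list medians. The myeloid genes that are lower at 300 ng/ml are higher at 1000 ng/ml as labelled, the medians of the plasma cell genes are 0.03 to 0.12, and those of the targets of Xbp1 run from -0.16 at 300 ng/ml to 0.39 at 1000 ng/ml.

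The labelled cell type was checked against 10 pro-B and pre-B cell markers. In clone 4 without doxycycline 8 were well above background on both arrays of the 10 and of the 300 ng/ml comparison, 7 at 1000 ng/ml and 10 in the Pax5sz2 comparison. The defining surrogate light chain genes were weak in clone 4 in the dose comparisons. Igll1 was not well above background in either RNA of the 300 and 1000 ng/ml comparisons, nor Vpreb1 in either RNA at 300 ng/ml. In the Pax5sz2 comparison all of them were well above background in both RNAs. By the brightest probe of each gene none of the 10 passed the size at 10 or 300 ng/ml. Dntt, the terminal transferase, had -0.99 at 10 ng/ml, where its 2 other probes were lower past the size (-1.31 and -1.11). Its brightest probe was marked as an outlier on a 300 ng/ml array and has no mean there, and the other 2 were lower past the size (-2.44 and -2.42). Another probe of the recombinase gene Rag1 was also lower past the size at 300 ng/ml (-1.53). Il7r, the IL-7 receptor, had -1.82 ± 1.65 there (SD, n = 2 arrays). Cd79a and Ebf1 were lower at 1000 ng/ml as labelled, and in Pax5sz2 Dntt (-4.89) and Ebf1 were lower and the 3 surrogate light chain genes higher.

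Of 5 markers of mature plasma cells (Tnfrsf17, Mzb1, Irf4, Slamf7 and Ccr10), all of them also in the plasma cell list, 4 were well above background in clone 4 without doxycycline on the later arrays and 3 at 1000 ng/ml. On the later arrays only Mzb1 was bright, with mean levels of 15.64 to 15.73. Tnfrsf17, Slamf7 and Irf4 had 6.48 to 6.68, close to background. Of 6 T cell markers only Thy1 passed, in Pax5sz2 (1.68, with another probe at 0.29). The probe for mouse Pax5 made from its reference transcript had mean ratios of -0.11, 0.23, -0.45 and -0.27. Another made from a cDNA clone had 2.66 and 2.36 at 10 and 300 ng/ml, 0.11 at 1000 ng/ml, where neither RNA was well above background, and 3.02 in Pax5sz2, which has no huPax5. The probes are for the mouse gene, so they do not check the labels of the human transgene.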

How the data were processed

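Total RNA was labelled with Cy3 and Cy5 and hybridised to 8 dual-channel Agilent arrays, per the labels' protocols. The deposited scanner files hold spot intensity, made with Agilent Feature Extraction 10.5.1.1 per the file headers, and the deposited series matrix holds log10 ratios, equal to the scanner log10 ratios with the sign turned on dye-swapped arrays, to within 5e-06. Per the file headers the 1000 ng/ml arrays used a multiplier of 2.6 for well above background and no multiplicative detrending, against 13 and detrending on the others. From mean and background intensity (R 4.3.3, limma 3.58.1), normexp with an offset of 50, loess within arrays (control spots at weight 0) and removal of outlier spots (37 to 295 per array) gave log2 ratios. No spot was saturated. Channel levels were scaled with Aquantile. The number of arrays limits the precision.

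Probe names came from the files or from RefSeq (33026 of 41174 probes). A listed gene is its brightest probe, and lists name up to 4 genes past the size per comparison, or 2 with the largest ratio where none passed; genes alike are the 3 nearest by root mean square difference. The 2 dye-swapped arrays were averaged to 1 value a comparison and fitted with limma (lmFit, eBayes). The limma fits do not hold the control's own spread, and all comparisons share the labelled control. A bound for an RNA not well above background uses the lowest detected level of its array. The steps were tested on simulated data. Members, lists and tests were chosen with earlier results of these data known. Figures used Python 3.11.15 and matplotlib 3.10.9.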

Additional observations from a re-analysis of the deposited data

Results flagged for a closer look

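Jchain moved in opposite directions on all arrays of 2 pairs of comparisons, and these differences were not tested. On probe A_51_P150710 the 1000 ng/ml mean minus the 300 ng/ml mean was 5.10 as labelled, and the Pax5sz2 mean minus the 300 ng/ml mean 2.75. On A_51_P150705 they were 6.14 and 2.69. With the 1000 ng/ml sign turned, both arrays at 1000 and at 300 ng/ml lie below 0 on both probes.

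Both bright Ighm probes were above 0 on both arrays at 300 ng/ml and, as labelled, below 0 on both arrays in each other comparison, and these differences were not tested. With the 1000 ng/ml sign turned, both arrays at 1000 ng/ml lie above 0 on both probes too. For A_52_P358360, 300 minus 10 ng/ml was 0.50, 1000 minus 300 ng/ml -1.37 as labelled and Pax5sz2 minus 300 ng/ml -0.67. For A_51_P485421 they were 0.48, -1.02 and -1.29. Over the 8 arrays the level of A_51_P485421 in clone 4 without doxycycline had a far sample, 15.01 in the Cy5 channel of a 1000 ng/ml array, where the next was 13.98 and the lowest 13.36. The gap was 0.62 of the range, above Dixon's limit for 8 samples, a limit that chance alone passes in about 1 of 20 sets. The 8 values come from both scan batches, which were not measured at the same settings.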

How the results depend on the processing

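No paired analysis was possible because the labels give no replicate numbers and each comparison has 1 pair of RNAs. The Jchain ratios at both higher doses and in Pax5sz2 kept their sign under each normalization and each dye orientation alone, with ranges of -1.52 to -1.06, 3.59 to 3.89 and 1.12 to 1.97 for A_51_P150710, and -1.56 to -1.22, 4.59 to 4.94 and 1.08 to 1.77 for A_51_P150705. Median centring takes out the median ratio of each array and leaves dye bias that varies with intensity. With it 2 of the 8 calls at the size among member probes were left, both of them Jchain at 1000 ng/ml. The 4 Jchain calls at 300 ng/ml and in Pax5sz2 and both Ighm calls were lost. The other alternatives gave 7 to 9; a size of 1.5-fold, chosen after seeing the data, gave 9. The Ighm calls passed by little: A_52_P358360 at 1000 ng/ml ranged from -1.31 to -1.03 and A_51_P485421 in Pax5sz2 from -1.10 to -0.59.

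With the 1000 ng/ml sign turned, Jchain was -3.75 and -4.69 and Ighm A_52_P358360 1.04 there, and the mean doxycycline effect reversed for Jchain (-1.73 and -2.05), Xbp1 (-0.034) and Ighm (0.40 and 0.26). Without that comparison it reversed for Jchain (-0.72 and -0.73) and A_52_P358360 (0.085). With a single dye orientation the Xbp1 mean was -0.043 to 0.14, and with median centring the Pax5sz2 effect of A_52_P358360 was 0.26. The cause of these was not tested.

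Probes past the size numbered 498, 995, 633 and 1512 in the 4 comparisons. Median centring gave 194 (10 ng/ml), 218 (1000 ng/ml) and 952 (Pax5sz2), Agilent's processed signals 1527, 2700, 1199 and 3505, the series matrix 1527, 2705, 1201 and 3505, an offset of 0 995, 1707, 973 and 2547, and a 1.5-fold size 2351, 3525, 1741 and 4160. A single dye orientation gave 739 to 953, 1493 to 3181, 846 to 971 and 1844 to 2045. The share of higher calls was 29.7% (10 ng/ml), 32.4% (300 ng/ml) and 36.8% (Pax5sz2), and 47.9%, 16.8% and 60.5% with median centring. The mean doxycycline effect called 4764 probes without the 1000 ng/ml comparison, and 0 otherwise. The Pax5sz2 effect called 1863 without it, 129 with its sign turned, 156 with robust and trended eBayes and 0 to 1 with a single dye orientation. Signals near background limit Prdm1 and the dim Ighm probe.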
